A study of Mus musculus with 12 samples.

Results

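The data described here are the 4 H3K4me1 Cut & Run libraries out of 12 in the series, 2 from Fbxw7 knockout (KO) and 2 from wild-type (WT) mouse embryonic fibroblasts, a culture of connective tissue cells taken from embryos. They were chosen by their antibody and genotype labels, and all of their peaks on the 19 autosomes were used. The other 8 libraries hold MLL4 or H3K4me3 and serve only for overlap. In Cut & Run an antibody tethers a nuclease to chromatin in cells, and the released fragments are sequenced. Both genotypes were grown in the same serum-supplemented medium. The labels give neither the design of the Fbxw7 allele, nor the strain, sex or embryo of origin, nor whether replicates came from separate cultures, so the tests see no more than the spread among these 4 libraries, which may be technical.

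H3K4me1 is monomethylation of lysine 4 of histone H3. It marks enhancers and the flanks of promoters, and in fibroblasts it covers many sites far from genes. MLL4, encoded by Kmt2d, is a main enzyme that places it. Fbxw7 is the subunit of an SCF ubiquitin ligase that recognises substrates such as cyclin E, Myc, Jun and Notch for degradation. The question is how the H3K4me1 landscape differs between cells with and without Fbxw7.

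Depth after duplicate filtering was 13627038 and 12611409 fragments in KO replicates 1 and 2, and 12607690 and 11604131 in WT replicates 1 and 2. The lists held 58716 and 52186 autosomal peaks in KO and 60817 and 55567 in WT. These numbers overlapped between genotypes (exact two-sided permutation p = 0.667). The median pileup, which is the number of fragments over a peak's summit as the authors' peak caller wrote it, was 18, 17, 19 and 18 in that order. The fragment length in the file headers was 241 and 240 bp in KO and 247 and 249 bp in WT. All 12 fibroblast marker genes examined, with their flanks of 10 kb, held a peak in at least 1 library. Together they carried 47, 35, 46 and 43 peaks in the order above. A peak was also held by 14378 of 19660 protein-coding genes off chromosome 10 and 794 of 1001 on it. Presence of a peak is therefore no check of identity. Among genes of other lineages, Neurod1, Sox2, Sox10 and Rbfox3 (neural), Myog, Myod1 and Pax7 (myogenic), Krt5 and Krt18 (epithelial), Tie1 (endothelial) and Dppa3 and Zfp42 (pluripotent cells) had 0 peaks in all 4 libraries. Other markers of these lineages did hold peaks: 5 of 6 endothelial markers with 14 in every library, 5 of 7 epithelial with 5 to 8, 2 of 6 neural with 7 to 13, 2 of 5 myogenic with 8 or 9, and 2 of 4 pluripotency markers with 1 to 4. All 7 haematopoietic markers examined had a peak in at least 1 library, 6 to 9 peaks in all per library. None of the markers tested passed the gene test used here.

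Sequences of 4 promoters that carried an H3K4me1 region in the libraries of 1 genotype only are shown because they place that gain or loss at a transcription start. Each is the RefSeq window (GRCm38.p6, the coordinates of mm10) of 250 bases before to 50 bases after the start, read 5′ to 3′ on the gene's strand. Capitals mark a TGANTCA (AP-1), GGAATG (TEAD), CACGTG (E-box) or CCAAT motif on either strand; none of the motifs contains another. Sparc encodes a collagen-binding matrix protein (chr11:55420031-55420330, minus strand), Cebpa a transcription factor of adipocyte and myeloid differentiation (chr7:35119043-35119342, plus strand), Cryba2 a beta-crystallin (chr1:74893094-74893393, minus strand) and Mad1l1 a spindle checkpoint protein (chr5:140174869-140175168, minus strand).
Sparc: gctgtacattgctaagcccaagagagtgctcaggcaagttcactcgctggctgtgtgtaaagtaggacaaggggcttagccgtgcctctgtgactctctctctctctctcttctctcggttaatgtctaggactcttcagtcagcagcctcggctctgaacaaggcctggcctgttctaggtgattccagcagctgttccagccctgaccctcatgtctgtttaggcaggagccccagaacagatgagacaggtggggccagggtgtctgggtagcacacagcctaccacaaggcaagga
Cebpa: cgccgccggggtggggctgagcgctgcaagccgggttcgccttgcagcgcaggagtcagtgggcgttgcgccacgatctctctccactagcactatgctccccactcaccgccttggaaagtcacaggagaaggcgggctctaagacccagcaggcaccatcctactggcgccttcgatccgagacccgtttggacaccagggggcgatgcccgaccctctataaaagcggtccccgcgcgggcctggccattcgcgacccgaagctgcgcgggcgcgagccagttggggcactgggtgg
Cryba2: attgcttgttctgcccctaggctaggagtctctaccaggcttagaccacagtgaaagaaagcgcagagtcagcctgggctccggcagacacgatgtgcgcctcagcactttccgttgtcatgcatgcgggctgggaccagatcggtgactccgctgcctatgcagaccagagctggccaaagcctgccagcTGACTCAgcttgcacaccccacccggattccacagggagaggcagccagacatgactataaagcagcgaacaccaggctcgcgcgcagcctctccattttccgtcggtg
Mad1l1: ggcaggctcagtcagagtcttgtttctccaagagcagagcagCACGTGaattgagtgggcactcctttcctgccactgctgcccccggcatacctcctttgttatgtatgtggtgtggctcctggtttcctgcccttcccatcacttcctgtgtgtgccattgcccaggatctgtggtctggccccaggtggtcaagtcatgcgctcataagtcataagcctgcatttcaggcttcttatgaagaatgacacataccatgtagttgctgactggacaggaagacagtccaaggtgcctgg

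At Sparc a region from 55420089 to 55420604, covering 242 bases of the window, had summit pileups of 22 and 23 in the KO libraries and no peak in WT. At Cebpa the KO pileups were 10 and 15 over the whole window, again with no WT peak. At Cryba2 the WT pileups were 18 and 17 with no KO peak, and its window holds 1 AP-1 motif. At Mad1l1 the WT pileups were 16 and 16 with no KO peak, and its window holds 1 E-box. The Sparc and Cebpa windows hold none of the 4 motifs, and they contain 4 and 29 CpG dinucleotides. The lowest pileup of any peak was 8 in each list, and a missing peak means only that the site did not pass in that library.

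Few promoters took part. Of 20084 promoter windows in the table, which lacks chromosome 18, regions held only by the KO libraries touched 84 and regions held only by the WT libraries touched 82, while regions with a peak in all 4 libraries touched 341. The AP-1 motif occurred in 7.06% of all windows, 8.33% of the KO windows, 17.1% of the WT windows and 15.8% of those shared by all 4 libraries. The CCAAT motif occurred in 38.1%, 42.9%, 51.2% and 36.7% in the same order, the TEAD motif in 13.4%, 17.9%, 14.6% and 18.5%, and the E-box in 7.89%, 11.9%, 7.32% and 6.16%. These shares are descriptions of the sequence and carry no test.

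Peaks off chromosome 10 were shorter and further apart in the KO libraries, while on chromosome 10 the order was the opposite. Off chromosome 10 the median peak length was 548 and 522 bp in KO and 572 and 561 bp in WT, means of 535 ± 18.4 and 566.5 ± 7.78 bp (SD, n = 2 each). Peaks of at least 1 kb made up 15.6% and 13.1% of the KO lists and 17.0% and 15.8% of the WT lists. On chromosome 10 the median was 604 and 591.5 bp in KO and 585 and 574 bp in WT, and peaks of at least 1 kb made up 21.4% and 18.3% against 19.03% and 16.9%. In median length the genotypes therefore did not overlap on either part, with opposite signs, whereas the 1 kb shares overlapped on chromosome 10. The exact permutation p was 0.333 for each median, the smallest that 2 against 2 libraries can give, so no per-library value here can pass 0.05.

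KO replicate 2 and WT replicate 1 had nearly the same depth, and their medians stood 522 against 572 bp. The shortest peak in a list equals its fragment length, which was 7.50 bp lower in KO on average. With that length subtracted, the medians off chromosome 10 were 294.5 ± 17.7 bp in KO and 318.5 ± 9.19 bp in WT (SD, n = 2), a difference of -24.0 bp against -31.5 bp. When each list was cut to its 52186 best peaks by q value, KO replicate 1 reached 593 bp and the groups overlapped (557.5 ± 50.2 against 607.5 ± 31.8 bp). The sign on chromosome 10 then turned to -2 bp.

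**Figure D1:**
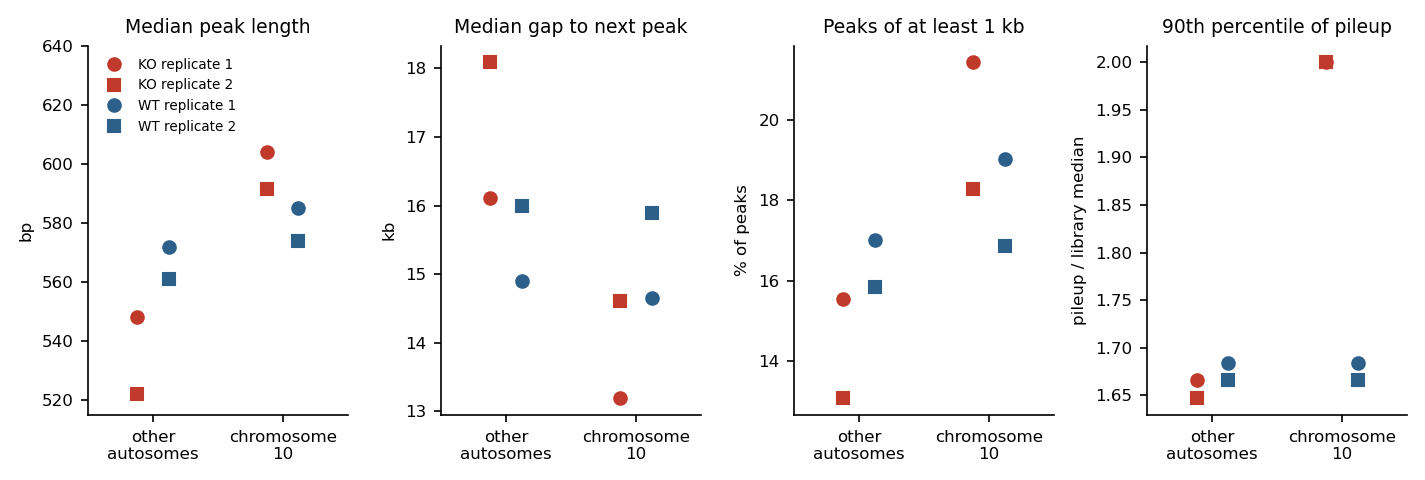
Peak length, gap to the next peak, share of peaks of at least 1 kb and 90th percentile of relative pileup, with 1 point per library (red KO, blue WT, circles replicate 1, squares replicate 2), on the 18 other autosomes and on chromosome 10. The vertical axes do not start at 0. On chromosome 10 both KO points of the pileup panel lie at 2.00, against 1.68 and 1.67 in WT, while off it the 4 points lie between 1.65 and 1.68.

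Spacing followed the same pattern. The median gap from a peak's end to the next peak's start was 16107 and 18090 bp in KO and 14894 and 15999 bp in WT off chromosome 10, and 13190.5 and 14610 bp against 14651 and 15898 bp on it. The groups did not overlap on either part, but the nearest values off chromosome 10 were close, 16107 bp in KO replicate 1 and 15999 bp in WT replicate 2, and so were 14610 and 14651 bp on it. At equal list length the separation off chromosome 10 was clearer, with 18114 and 18090 bp in KO and means of 18102 ± 17.0 against 17067 ± 3.89 bp (SD, n = 2). The share of peaks with the next one within 5 kb was 17.1% and 15.5% in KO and 18.1% and 17.0% in WT off chromosome 10, so KO replicate 1 fell inside the WT range.

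Runs of peaks less than 12.5 kb apart were counted because dense runs of H3K4me1 mark large regulatory domains. Off chromosome 10, peaks with no neighbour at that distance made up 35.2% and 38.8% of the KO lists and 32.9% and 34.7% of the WT lists. Runs of at least 5 peaks numbered 1253 and 884 in KO and 1506 and 1187 in WT, which overlap. Among the 3 runs with the most peaks in each library, some recurred in both genotypes. A run over Col5a1, a fibrillar collagen gene, held 17 peaks in KO replicate 1 and 17 in WT replicate 2, and a run over Emp1, a membrane protein gene, held 16 and 13 peaks in the KO libraries and 17 in WT replicate 2.

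Peaks in KO also lay further from promoters by median distance, though not by the share next to a start. Off chromosome 10, peaks more than 100 kb from any listed transcription start made up 40.6% and 40.8% in KO and 38.3% and 38.6% in WT. The median distance to a start was 65.6 and 66.3 kb against 59.3 and 60.6 kb. Fewer KO peaks lay inside protein-coding genes, 50.1% and 50.1% against 51.5% and 51.5%, yet more lay in genes of at least 500 kb, 6.73% and 6.85% against 6.46% and 6.44%. In each of these measures the KO pair and the WT pair did not overlap (exact permutation p = 0.333). The share of peaks within 1 kb of a start did overlap off chromosome 10, with 3.95% and 3.49% in KO and 3.68% and 3.46% in WT. On chromosome 10 that share was higher in KO, with 4.23% and 3.94% against 3.61% and 3.59%. Starts were known for 16456 of 20661 autosomal protein-coding genes.

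Pileup was taken relative to the library median, which sets the middle of each list to 1, so values describe the spread around it and the place of each chromosome within it. Off chromosome 10 the 90th percentile was 1.67 and 1.65 times the median in KO and 1.68 and 1.67 in WT, which overlap, and the 99th percentile was 2.28 and 2.24 against 2.37 and 2.33, which do not. On chromosome 10 the median peak stood at 1.17 and 1.18 times the library median in KO and at 1.00 and 1.00 in WT. Mean pileup on chromosome 10 over that on the other autosomes was 1.16 and 1.16 in KO and 1.01 and 1.00 in WT. The chromosome held 7.48% and 7.68% of the autosomal peaks in KO and 6.07% and 6.07% in WT. In these bulk libraries more cells with a mark and more mark per cell cannot be told apart, and the peaks were called without a control library. The amount of chromosome 10 DNA was not measured, and the cause of its difference was not tested.

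Other autosomes differed less, although on each of the 19 the KO and WT values of this pileup ratio did not overlap. For a chromosome other than 10 the divisor includes chromosome 10, whose higher KO pileup lowers the KO ratio. Non-overlap without chromosome 10 in the divisor was not tested. The ratio of KO over WT was 1.15 on chromosome 10 and ran from 0.944 on chromosome 4 to 1.05 on chromosome 16 elsewhere, with 1.04 on chromosome 11. Median peak length was lower in KO on 17 of the 18 other autosomes by group mean, and 1.5 bp higher on chromosome 16.

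**Figure D2:**
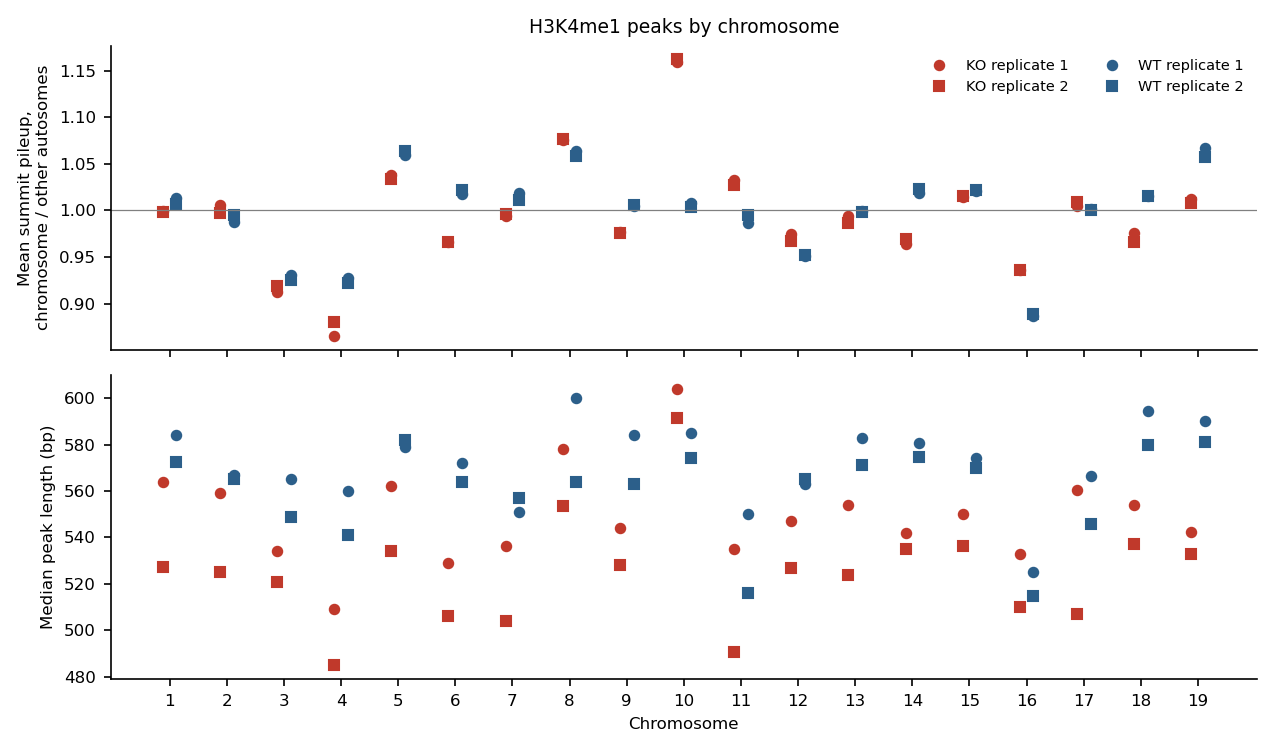
Upper panel, mean summit pileup of a chromosome over that of the other autosomes; lower panel, median peak length in bp; 1 point per library and chromosome (red KO, blue WT, circles replicate 1, squares replicate 2). Chromosome 10 is at 1.16 and 1.16 in KO against 1.01 and 1.00 in WT, and chromosome 4 at 0.865 and 0.881 against 0.927 and 0.923.

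To compare the same sites, peaks of the 4 lists were merged wherever they shared at least 1 bp. Off chromosome 10 this gave 86134 regions, of which 24863 had a peak in all 4 libraries; chromosome 10 gave 5996 and 1944. For these shared regions the highest pileup over the library median was compared between genotypes with limma and Benjamini-Hochberg adjustment over all autosomal shared regions, at an adjusted p of 0.05.

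Off chromosome 10, 357 shared regions rose in KO (1.44% of those tested) and 345 fell (1.39%). The median log2 KO/WT over all 24863 was -0.03, and regions that passed differed by at least 0.63 on the log2 scale. On chromosome 10, 170 of 1944 rose (8.74%) and 6 fell (0.309%), with a median of 0.28. With pileup divided by total fragments instead, the median off chromosome 10 shifted to -0.22 and the counts became 197 higher and 2224 lower, with 106 and 35 on chromosome 10. With each library centred within windows of 20 Mb the counts were 237 and 150 off chromosome 10 and 13 and 17 on it. Leaving out a library left 3 higher and 5 lower off chromosome 10 without KO replicate 2, and 0 and 0 without KO replicate 1, WT replicate 1 or WT replicate 2; on chromosome 10 each gave 0 and 0.

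Of the 5 largest rises off chromosome 10, 3 lay between genes. A region inside Slc22a22, an organic anion transporter gene (chr15:57419937-57420456), had pileups of 40 and 44 in KO and 11 and 16 in WT, a log2 difference of 1.74 (SE 0.23, limma adjusted p = 3.78e-05). A region 118 kb from Cpe, the carboxypeptidase E gene (chr8:64472609-64475032), had 32 and 29 against 10 and 10 (log2 1.69). A region 105 kb from Mmd (chr11:90142177-90143782) had 31 and 40 against 11 and 13, and one inside Dlg2, a synaptic scaffold gene (chr7:92140865-92142551), had 32 and 38 against 12 and 12. A region 297 kb from Lnpk (chr2:74216548-74217387) had 30 and 27 against 10 and 10. In each of the 5 both KO pileups lay above both WT pileups, which was a condition of naming them.

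The largest falls described here lay inside genes. In Gli3, a transcription factor of Hedgehog signalling (chr13:15603038-15604649), pileups were 15 and 17 in KO and 44 and 43 in WT, a log2 difference of -1.37 (SE 0.21, limma adjusted p = 0.000243). In Cachd1, a calcium channel auxiliary protein gene (chr4:100886258-100887368), they were 18 and 15 against 40 and 53 (log2 -1.41, limma adjusted p = 0.000205). In Dock5, a Rac exchange factor gene (chr14:67858436-67859276), they were 13 and 14 against 46 and 30. In Trim3, a ubiquitin ligase gene (chr7:105620936-105622044), they were 11 and 9 against 34 and 23. The 9 regions named here were also called with the window centring, and none of the 9 passed with any 1 library left out (limma adjusted p of 0.111 to 0.25).

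The length of the shared regions gave a different picture. Covered length passed the test in 0 regions in either direction, both off chromosome 10 (0% and 0%) and on it (0% and 0%), by limma. At an unadjusted p of 0.05, 803 were longer and 1614 shorter in KO off chromosome 10, with a median log2 of -0.09, and 140 and 61 on chromosome 10, with a median of 0.08. The opposite signs are those of the per-library medians, which come from the same peaks.

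The pileup difference on chromosome 10 spanned its whole length. In windows of 20 Mb with at least 80 shared regions, the 7 windows of chromosome 10 had medians of 0.22 to 0.34 (log2 KO/WT). Of the 117 windows elsewhere, 42 had a median above 0, the lowest stood at -0.23 and the highest at 0.29, and 1 reached the lowest value of chromosome 10. That window was 60 to 80 Mb of chromosome 16, where 51 regions were held only by KO and 18 only by WT. The lowest was 100 to 120 Mb of chromosome 4, where 15 regions were held only by KO and 83 only by WT, and where 21 of 145 shared regions fell and 0 rose. The median relative pileup there was 0.08 and 0.08 (log2) in KO and 0.28 and 0.22 in WT.

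**Figure D3:**
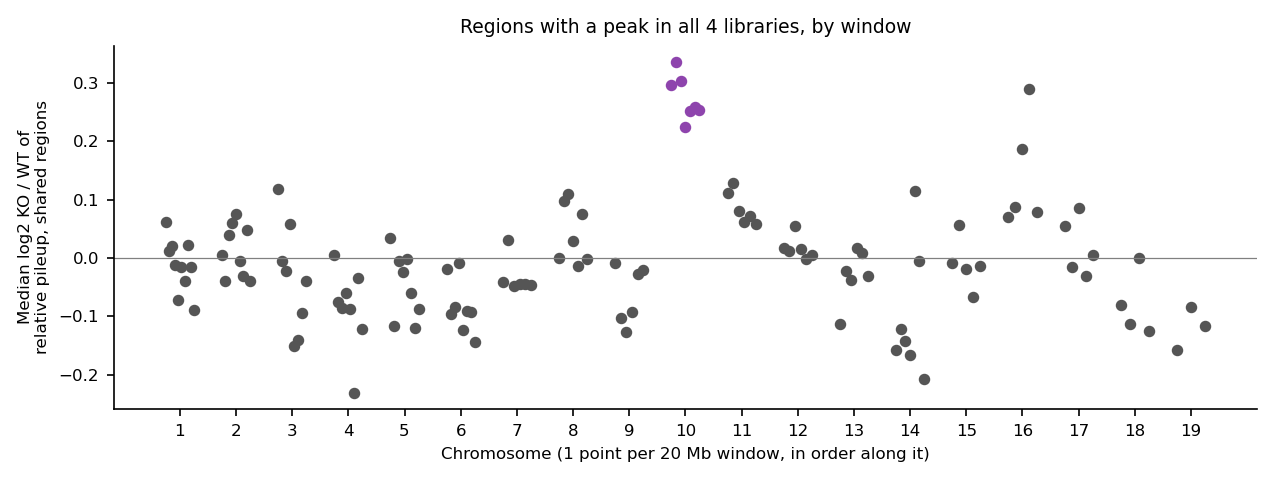
Median log2 KO/WT of relative pileup over regions with a peak in all 4 libraries, with 1 point per 20 Mb window in order along each chromosome (purple, chromosome 10; grey, others). The 7 windows of chromosome 10 lie between 0.22 and 0.34, and all but 1 of the 117 others lie under 0.22.

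Regions held by 1 genotype were as follows. Off chromosome 10, 4363 regions had a peak in both KO libraries and neither WT library (5.07% of 86134), called KO-only, and 5877 had the reverse, called WT-only (6.82%). On chromosome 10 there were 588 KO-only (9.81% of 5996) and 259 WT-only regions (4.32%). Without KO replicate 1 or 2 the KO-only regions off chromosome 10 numbered 10759 and 13650, and without WT replicate 1 or 2 they numbered 7715 and 6547. The WT-only regions numbered 10537 and 8662, and 13754 and 16151. On chromosome 10 the KO-only regions numbered 1105, 1351, 936 and 816 in the same order, and the WT-only regions 453, 386, 596 and 736. A genotype reduced to 1 library needs only 1 peak.

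These regions were weaker and shorter than those shared by all 4 libraries. Off chromosome 10 their median pileup was 15 and 14 in KO for KO-only regions and 16 and 15 in WT for WT-only regions, against 20 to 23 for regions shared by all 4 libraries. Their median merged lengths were 665 and 676 bp, against 1209 bp for the shared ones. KO-only regions lay a median of 85.9 kb from a transcription start, WT-only ones 52.7 kb, and shared ones 69.2 kb. Within 10 kb of a start were 15.99% of the KO-only, 19.3% of the WT-only and 14.2% of the shared regions. KO-only regions lay inside a gene in 46.2% of cases and WT-only ones in 54.0%. Genes of at least 500 kb held 7.91% of the KO-only and 6.62% of the WT-only regions off chromosome 10, and 10.5% and 6.18% on it.

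Other marks were seldom present at these sites. In the H3K4me3 list with the most overlap, WT replicate 1, peaks met 6.26% of the KO-only, 5.38% of the WT-only and 6.57% of the shared regions off chromosome 10. In the list of KO replicate 1 they met 1.19%, 1.05% and 0.684%. The 4 MLL4 lists, in the order KO replicates 1 and 2 and WT replicates 1 and 2, overlapped 7, 6, 8 and 7 KO-only regions and 0, 0, 0 and 1 WT-only regions. Each MLL4 list also met 12 of the shared regions off chromosome 10. In the same order they met 6, 2, 8 and 11 regions with an H3K4me1 peak in 1 library only. The overlaps at KO-only regions were thus few among 4363 and came from MLL4 lists of both genotypes.

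The Fbxw7 gene (chromosome 3, 84814990 to 84979198) with its flanks of 10 kb held 8 and 6 peaks in KO and 12 and 10 in WT. The covered share, which is the number of bases of a gene and its flanks under peaks per 1000000 autosomal bases that the library's peaks cover, was 101 and 87.1 in KO and 165 and 156 in WT. The groups did not overlap, yet the log2 difference of -0.77 (SE 0.20) did not pass the gene test (limma adjusted p = 0.0917; 0.0193 without KO replicate 1 and up to 0.567 over the other alternatives). Such non-overlap was common, found in 50.6% of the 3973 genes tested off chromosome 10. Of 17 regions over the Fbxw7 gene itself, 3 had a peak in all 4 libraries, 1 was KO-only and 2 were WT-only. The KO-only region (84828977 to 84829556) had pileups of 17 and 17. The WT-only ones (84843321 to 84843702 and 84908627 to 84909361) had 24 and 16, and 13 and 18. Since the deleted stretch of Fbxw7 is not named in the labels, these peaks are no check of the genotype.

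For each autosomal protein-coding gene with at least 5 merged regions within its body and flanks, the covered share was compared between genotypes on the log2(share + 1) scale with limma, adjusted over all 4238 such genes. That scale understates changes of genes with low shares. Off chromosome 10, 31 of 3973 genes rose in KO (0.78%) and 33 fell (0.831%), with a median log2 over all of -0.12. On chromosome 10, 17 of 265 rose (6.42%) and 0 fell (0%), with a median of 0.41; 2 genes there were lower at an unadjusted p of 0.05. The counts were 9 and 1 off chromosome 10, and 1 and 0 on it, when libraries were centred within 20 Mb windows, and 0 in each direction when all genes with at least 1 region were fitted, of which 2005 and 159 had an unadjusted p under 0.05. Without WT replicate 2 the counts were 11 and 3 off chromosome 10 and 5 and 0 on it, and without KO replicate 1, KO replicate 2 or WT replicate 1 they were in turn 78 and 225, 46 and 127, and 68 and 34 off it, and 34 and 2, 22 and 0, and 31 and 0 on it. Of the named genes that passed, Ptprd, Lsamp, Thrb, Fgf12, Pld5, Ctnna3, Pcdh15 and Mgat4c kept their calls with each library left out in turn; the others lost theirs without WT replicate 2, except Casq2, which lost its call without WT replicate 1.

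Genes that rose off chromosome 10 were long, and 10 of the 31 belonged to a list of long cell adhesion and axon guidance genes. The median length of the 31 was 595 kb, against 220 kb for those that fell and 83.3 kb for all tested. Of 49 tested genes of at least 1000 kb, 12 rose and 1 fell, with a median log2 of 0.27; their median covered share was 390 and 379 in KO and 301 and 292 in WT. The 1 that fell was Rbfox1, an RNA-binding protein gene named here after its value was seen, with shares of 139 and 162 in KO and 343 and 391 in WT, and it kept its call with window centring (log2 -1.46, limma adjusted p = 0.0227). Of 1231 genes under 50 kb, 0 rose and 1 fell, with a median of -0.17 and median shares of 42.3 and 43.0 in KO and 47.8 and 46.8 in WT. The 49 long genes held 153 KO-only and 119 WT-only regions, and the 1231 short ones 265 and 482. Across the 3973 genes the relation of length and log2 difference was weak (Spearman's rho 0.09, over genes, which are not independent).

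**Figure D4:**
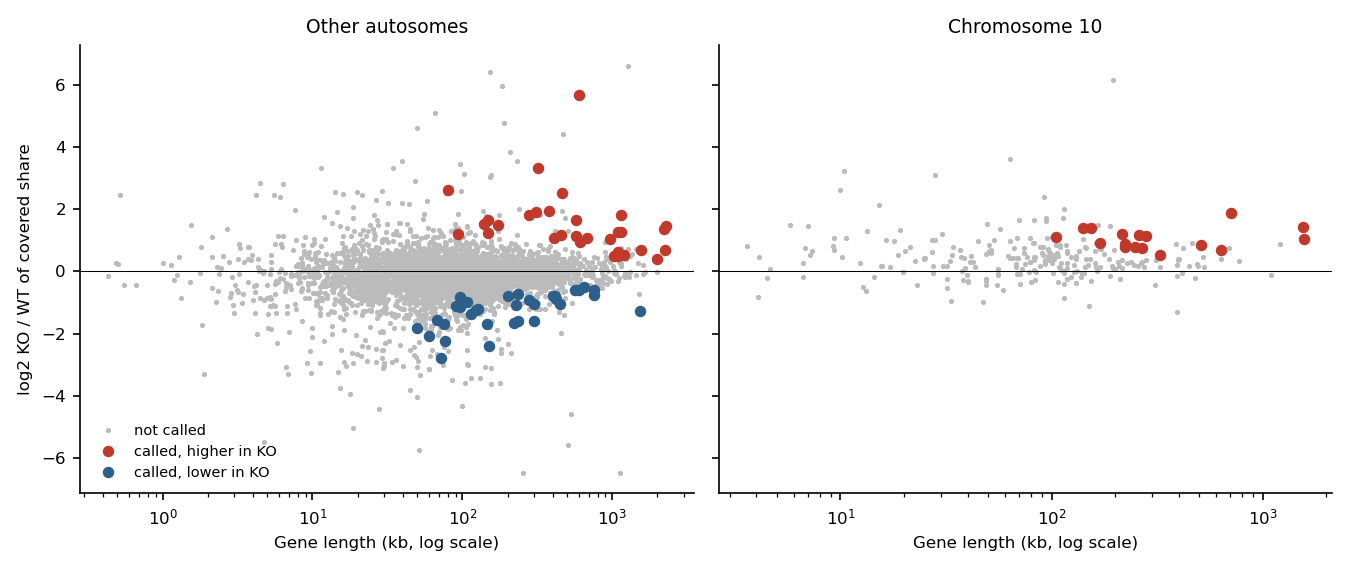
log2 KO/WT of the covered share against gene length in kb (log axis) for 3973 genes on the other autosomes and 265 on chromosome 10. Red points passed the limma test and were higher in KO, blue ones passed and were lower, grey ones did not pass; among genes of at least 1000 kb off chromosome 10, 12 are red and 1 is blue.

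Long adhesion and guidance genes were described by a list of 53, most of which encode cadherins, protocadherins, contactins, immunoglobulin-domain adhesion proteins, neurexins, teneurins, receptor phosphatases, the guidance receptors for netrin, Slit and ephrin, and semaphorins; it also holds Nrg1, a ligand gene. Of 45 tested, 11 rose and 1 fell. Off chromosome 10, 10 of 43 rose, against 0.78% of all genes tested there, and the median log2 was 0.31 against -0.12. The list was drawn up with earlier results of these data known, so this excess is not independent of them. The median length of the tested members was 911 kb, and among all genes of at least 1000 kb off chromosome 10, 12 of 49 rose, so the count of the list cannot be told apart from that of long genes. Before any scaling, bases under peaks were higher in each KO than in each WT library in all 31 genes called higher off chromosome 10. The same held for all 17 on chromosome 10, so it is nothing particular to the 11 of the list. With window centring 4 of them kept the call, and without WT replicate 2 the list had 4 called higher; without chromosomes 4, 16 and 19 it had 7.

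Ptprd, a receptor tyrosine phosphatase of synapses, had the most gained regions off chromosome 10 (chromosome 4, 75941237 to 78211742). It held 36 and 35 peaks in KO and 14 and 15 in WT, with 14 KO-only and 0 WT-only regions. Its covered share was 636 and 689 in KO and 268 and 212 in WT, a log2 difference of 1.47 (SE 0.13, limma adjusted p = 0.00286). The gain ran against its chromosome, on which 8 genes fell and Ptprd alone rose. The 9 regions of Ptprd shared by all 4 libraries had a median log2 pileup difference of 0.33, and none of them passed on its own.

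Lsamp, an immunoglobulin-domain adhesion gene of the IgLON family (chromosome 16, 39984254 to 42181679), had covered shares of 487 and 477 in KO and 199 and 174 in WT (log2 1.37, SE 0.13, limma adjusted p = 0.00286). It held 34 and 27 peaks against 12 and 14, with 6 KO-only and 0 WT-only regions. Unc5d, a netrin receptor gene (chromosome 8, 28646717 to 29219671), had 171 and 203 against 64.0 and 52.7 (log2 1.67, SE 0.23). Dcc, the other type of netrin receptor (chromosome 18, 71253613 to 72351228), had 229 and 255 against 110 and 90.5 (log2 1.27, SE 0.19). The calls of these 4 genes, Ptprd included, were those kept with window centring.

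The cadherin genes Cdh12 and Cdh4 had covered shares of 334 and 257 against 115 and 59.9, and of 190 and 196 against 74.6 and 96.0. Cntnap2, a neurexin relative, had 472 and 457 in KO and 279 and 290 in WT. The Slit receptors Robo1 and Robo2 lie on chromosome 16, as does Lsamp; Robo1 had 622 and 682 against 460 and 462, and Robo2 436 and 481 against 286 and 283. Nrg1, a ligand of ErbB receptors, had 851 and 860 against 568 and 656. In each of these 6 genes both KO libraries lay above both WT libraries. Such non-overlap held in all 64 genes called off chromosome 10, and the 6 were named because they passed the test. All 6 lost their calls without WT replicate 2 and with window centring, Robo1 also without KO replicate 2, and Cdh4 and Cntnap2 also when only peaks with a −log10 q of at least 5 were used. Negr1, an IgLON gene like Lsamp, fell, with 277 and 287 in KO and 419 and 440 in WT (log2 -0.60, SE 0.12, limma adjusted p = 0.036), and it held 0 KO-only and 4 WT-only regions. Among members that did not pass, Cdh10 stood at a log2 of -1.02, Pcdh9 at 0.31 and Tenm3 at -0.18.

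**Figure D5:**
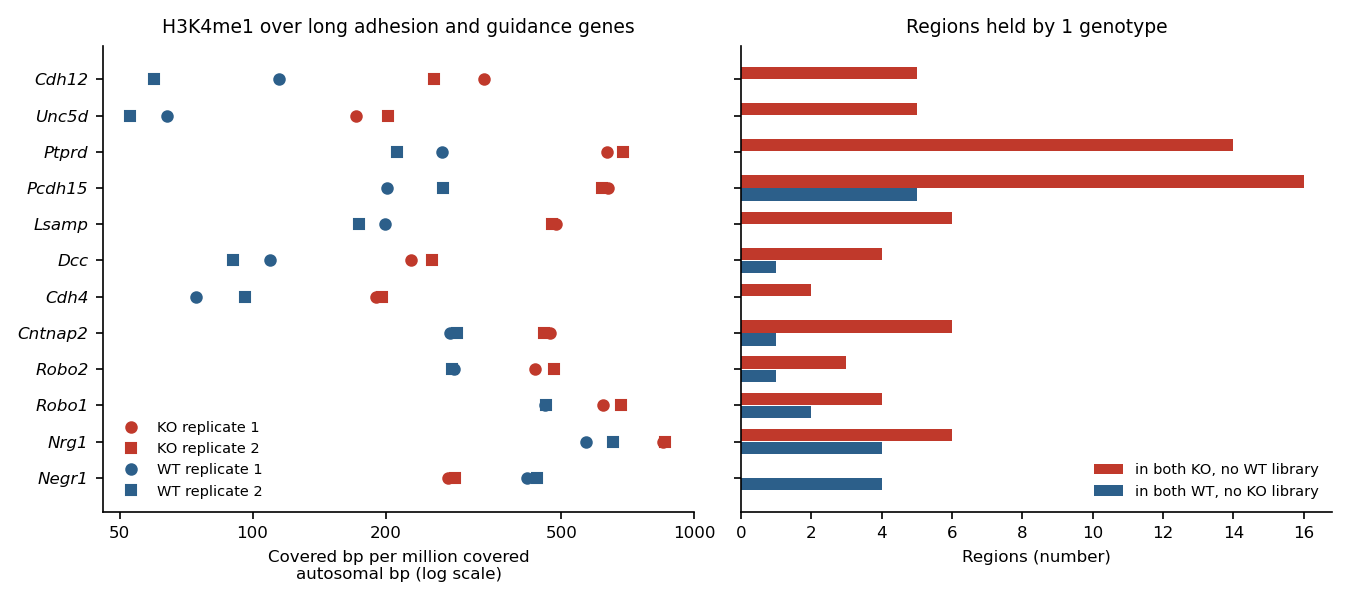
Left, covered bases per 1000000 covered autosomal bases (log axis) in each library for the 12 called genes of the list (red KO, blue WT, circles replicate 1, squares replicate 2). Right, numbers of regions held by both libraries of 1 genotype and neither of the other; Pcdh15 and Ptprd hold 16 and 14 KO-only regions, and Negr1 holds 4 WT-only regions and 0 KO-only.

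Counts of gained and lost regions named partly other genes. Off chromosome 10, 14378 genes held a region in body or flanks, with a median length of 23.6 kb. Of them 58 had at least 3 more KO-only than WT-only regions and 171 had at least 3 more WT-only than KO-only ones. Median lengths of the 58 and the 171 were 467 and 252 kb, but such net counts favour genes with many regions. The 10 genes with the highest net gain were Ptprd, Dlg2, Pcdh9, Adgrl3, Lsamp, Cntnap2, Tmem108, Unc5d, Cadm2 and Cdh12. Of these, Pcdh9 (8 KO-only and 1 WT-only) and Adgrl3 (6 and 0), a latrophilin gene, did not pass the gene test. Tmem108, a transmembrane protein gene (chromosome 9), had shares of 151 and 194 in KO and 50.1 and 46.3 in WT. Cadm2, a cell adhesion gene (chromosome 16), had 435 and 440 against 266 and 171. Dlg2 (chromosome 7) had 909 and 1025 against 722 and 725, a log2 difference of 0.42 (limma adjusted p = 0.0434). The call of Dlg2 was lost without KO replicate 2, without WT replicate 2, with the stricter q, with window centring and with flanks of 50 kb.

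The 10 genes with the highest net loss were Cdk14, Foxp1, Lrmda, Dlgap2, Arhgap26, Npas3, Grm7, Gpc6, Auts2 and Cacna1c. They are long genes with many regions, 46 to 80 each, and only Foxp1 and Dlgap2 passed the gene test. Foxp1, a forkhead transcription factor gene (chromosome 6, 98925342 to 99522746), had 2 KO-only and 10 WT-only regions. Its covered share was 500 and 446 in KO and 720 and 705 in WT (log2 -0.59, SE 0.10, limma adjusted p = 0.0201). The call was lost without WT replicate 2, with the stricter q and with window centring. Of its 17 regions shared by all 4 libraries, 4 fell in pileup and 0 rose. Dlgap2, a postsynaptic scaffold gene (chromosome 8), had 536 and 422 against 803 and 795. Cdk14, a cyclin-dependent kinase gene, had 0 KO-only and 9 WT-only regions and shares of 713 and 719 against 844 and 833, a log2 difference of -0.23 that did not pass (limma adjusted p = 0.176).

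The genes with the largest fold changes had few regions. Thrb, the thyroid hormone receptor beta gene (chromosome 14), had 7.02 and 7.40 kb under peaks in KO and 2.13 and 1.87 kb in WT (log2 1.96, SE 0.23, limma adjusted p = 0.0051). Grin2b, an NMDA receptor subunit gene (chromosome 6), had 4.96 and 2.82 kb against 0.807 and 0.583 kb. Pld5 (chromosome 1) had 5.57 and 4.29 kb against 0.268 and 0.887 kb. Fgf12, a fibroblast growth factor family gene (chromosome 16), had 7 and 5 peaks in KO and 1 and 0 in WT. St8sia4, a polysialyltransferase gene (chromosome 1), had 4 and 4 peaks against 1 and 2.

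Those that fell most were Marchf8, Slit1, Setd5, Casq2 and Rusc2. Slit1, a ligand of Robo receptors (chromosome 19), had 0.809 and 0.332 kb under peaks in KO and 2.98 and 3.35 kb in WT. The call of Slit1 was lost at equal list length, without flanks, with flanks of 50 kb and with replicate number added to the fit. Setd5, a SET-domain chromatin gene (chromosome 6), had 0.526 and 0.645 kb against 2.79 and 3.53 kb. Casq2, a calcium-binding protein of muscle (chromosome 3), had 1.10 and 0.568 kb against 3.99 and 3.52 kb, and Rusc2 (chromosome 4) 1.01 and 1.22 kb against 4.35 and 4.40 kb. Marchf8, a ubiquitin ligase gene (chromosome 6), had 1 and 2 peaks against 4 and 4. None of these 5 kept its call with window centring or in the fit of all genes with at least 1 region.

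Of the 33 genes that fell, 21 lay on chromosomes 4, 6 and 14, with 8 of 199 tested on chromosome 4, 8 of 237 on 6 and 5 of 168 on 14. On the same chromosomes 8 of the 31 genes that rose were found, 6 of them on chromosome 6, the most of any chromosome but 10. The median log2 pileup of shared regions on those chromosomes was -0.08, -0.09 and -0.11. Within the 100 to 120 Mb window of chromosome 4 lie Cachd1 (log2 -1.09, SE 0.13), Jak1, a cytokine receptor kinase gene (-1.38, SE 0.18), Sgip1 (-1.59, SE 0.22) and Plpp3, a lipid phosphatase gene (-1.69, SE 0.26), each with a limma adjusted p of 0.0194 or less. These were singled out after their values were seen. The part of the difference along these chromosomes in the gene calls was not tested.

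On chromosome 10 Spearman's rho of length and log2 difference was -0.0026 over the 265 genes, and genes under 50 kb had a median log2 of 0.42. The genes with the most gained regions there were led by a pair of over 1000 kb. Ctnna3, an alpha-catenin gene (chromosome 10, 63430098 to 65003667), had 17 KO-only regions and 1 WT-only region, 49 and 45 peaks in KO and 23 and 26 in WT. Its covered share was 914 and 1039 in KO and 426 and 514.6 in WT (log2 1.06, SE 0.11, limma adjusted p = 0.00353). Pcdh15, a protocadherin gene (73096277 to 74649831), had 16 KO-only and 5 WT-only regions and shares of 638 and 618 against 202 and 269 (log2 1.42, SE 0.15). Mgat4c, a glycosyltransferase gene (101681487 to 102391851), had 331 and 322 against 69.7 and 109 (log2 1.89, SE 0.22). These exceed the chromosome's median of 0.41, and Mgat4c alone kept its call with window centring (log2 1.74, limma adjusted p = 0.0347).

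Oprm1, the mu opioid receptor gene, had shares of 322 and 349 in KO and 170 and 138 in WT. Sash1, a scaffold protein gene, had 357 and 396 against 197 and 211, and Nhsl1 had 247 and 278 against 130 and 99.04. Hmga2, a chromatin protein gene, had 12 and 11 peaks in KO and 6 and 2 in WT and did not pass (limma adjusted p = 0.0699). Kcnc2, a potassium channel gene, had 4 and 5 peaks in KO and 0 and 0 in WT, and Nkain2 and Ppfia2 had 4 KO-only regions each; none of the 3 passed. Others that passed there, chosen after their values were seen, were Lama2, a laminin subunit gene (log2 0.70, SE 0.11), and Ntn4, a netrin gene (log2 1.10, SE 0.19).

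None of the other lists had a called member, which at 0.78% of genes higher and 0.831% lower off chromosome 10 is near the share over all genes and says nothing particular about lists of this size. In the matrix list 0 of 16 tested passed (median log2 0.16); Tnc stood at -0.87, Fbn2 at 0.51 and Sparc, with the KO-only region at its promoter, at 1.81 (limma adjusted p = 0.201). Mesenchymal transcription factors (0 of 19, median -0.03) included Nfix at -0.74 and Meis2 at 0.49. TGF-beta and BMP genes (0 of 19, median 0.03) included the receptor genes Bmpr1b at -0.65 and Tgfbr2 at -0.71. Growth factor receptors (0 of 12, median 0.05) included Ror1 at 0.44 and Met at -0.53. Focal adhesion and actin genes (0 of 21, median -0.08) included Limch1 at 0.58 and Ptk2, the focal adhesion kinase gene, at -0.68. The Notch list had 0 of 7 tested (median 0.20), AP-1 0 of 2, the H3K4 methylation machinery 0 of 7 (median -0.15) and Fbxw7 substrates 0 of 5 (median -0.11), among them Myc at -1.38 (limma adjusted p = 0.319).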

How the data were processed

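Cut & Run libraries for H3K4me1 from 2 KO and 2 WT samples of mouse embryonic fibroblasts were analysed, grouped by genotype label. Per the file headers, the authors called narrow peaks for each library alone with MACS 2.1.0.20150731 on paired fragments, without a control, at a q cutoff of 0.01, so lists hold no value where no peak passed. The deposited columns are peak length in bp, pileup (an unscaled signal of fragments at the summit), the −log10 p and q values, and the fold enrichment, a ratio to the library's own background; length, pileup and −log10 q were used. Per the submitters' processing notes the build was mm10, with SAMtools 1.5 and HOMER 4.10 among the tools named. The aligner's settings are not given in the sources used here.

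Pileup was divided by the median over autosomal peaks of the library. Per-library values were compared by exact two-sided permutation tests, and regions and genes with limma 3.58.1 (R 4.3.3, trend), at a Benjamini-Hochberg adjusted p of 0.05. A gene's bases under peaks, with 10 kb either side, were taken per 1000000 covered autosomal bases with a pseudocount of 1. Python 3.11.15, numpy 2.4.6, pandas 2.3.3, scipy 1.17.1 and matplotlib 3.10.9 were used. Gene coordinates and promoters came from RefSeq tables of GRCm38.p6, matched by symbol. Data were simulated with the real means, with Poisson noise for regions and the same normal noise, of the median SD, for every gene. The pileup test then recovered 35 of 94 regions changed by 1 on the log2 scale and 104 of 106 changed by 2. There were 3 false calls among 26807 regions. The gene test recovered 83 of 104 and 96 of 96, with 11 false calls among 4238 genes. Real noise differs between genes, so these rates need not hold for the real data.

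The comparison, the lists and the tests were chosen with earlier results of these data known, and centring within 20 Mb windows, leaving out chromosomes 4, 16 and 19, and subtracting the fragment length were added after seeing the data. Named were Fbxw7, the 10 genes off chromosome 10 with the highest net gain and the 10 with the highest net loss of regions, the 10 with the highest net gain on chromosome 10, the 5 called regions and 5 called genes with the largest change each way, and list members that passed. One region that this rule named is not reported here. List members that did not pass, and the promoters printed, serve as examples chosen after their values were seen. Depth was 11604131 to 13627038 fragments per library; weak sites near the calling threshold are the least precise. Chromosomes X and Y were left out of the comparisons.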

Additional observations from a re-analysis of the deposited data

Results flagged for a closer look

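Chromosome X was outside the comparisons and held peaks in each list, 1192 and 934 in KO replicates 1 and 2 and 1248 and 1049 in WT replicates 1 and 2. There is no control library to set them against. They made up 1.99% and 1.76% of the KO lists and 2.01% and 1.85% of the WT lists, which overlap (exact two-sided permutation p = 0.667).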

How the results depend on the processing

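With 2 libraries a group, leaving one out leaves a lone sample that is assumed to vary like the other genotype. Where no value is given for the change of a count, the cause was not tested. Over the fits that left out 1 library, calls of relative pileup ranged from 0 to 3 higher and 0 to 5 lower off chromosome 10 and were 0 in both directions on it. Gene calls ranged from 11 to 78 higher and 3 to 225 lower off chromosome 10, and from 5 to 34 higher and 0 to 2 lower on it; those of the long adhesion and guidance list ranged from 4 to 14 higher. KO-only regions ranged from 6547 to 13650 off chromosome 10 and 816 to 1351 on it, and WT-only regions from 8662 to 16151 and 386 to 736. The difference in peak number ranged from -6006 to 524, and that in the share of chromosome 10 peaks with a neighbour within 5 kb from -0.347 to 1.14 percentage points.

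For peaks with a −log10 q of at least 5, pileup calls were 143 higher and 137 lower off chromosome 10 and 90 and 0 on it. Gene calls were then 19 higher and 38 lower off it and 21 and 0 on it. KO-only and WT-only regions numbered 2633 and 4648 off it and 435 and 161 on it. With window centring, pileup calls were 237 and 150 off chromosome 10 and 13 and 17 on it, genes 9 and 1 off it and 1 higher on it, and list members 4. With scaling by fragments, pileup calls were 197 and 2224 off it and 106 and 35 on it. Among regions above the median of mean pileup, 156 rose and 259 fell off it, and 129 rose and 3 fell on it. Genes with at least 1 region gave 0 calls in each direction, off it and on it, and 0 in the list. With flanks of 50 kb, genes called were 61 and 128 off it and 48 higher on it; with a pseudocount of 10 they were 51 and 61, and 27. Without chromosomes 4, 16 and 19, 7 list members were called higher. At equal list length the difference in median length on chromosome 10 was -2 bp.

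Signs reversed for genes that did not pass. Lrmda stood at 0.057 with the stricter q and 0.049 with window centring, Arhgap26 at 0.057 with window centring, and Gpc6 at 0.074 and 0.14, and between -0.195 and 0.046 with 1 library left out. Ppfia2 had a net of -1 region with the stricter q.

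Over single regions and genes, same-numbered libraries did not deviate together (correlations of -0.0045, 0.011 and -0.033 for pileup, length and genes), so the numbers were not taken as pairs. Whole lists did shift together. Replicate 1 held more peaks than replicate 2 in KO (58716 and 52186) and in WT (60817 and 55567). Its median peak length off chromosome 10 was also higher, 548 and 522 bp in KO and 572 and 561 bp in WT. With the replicate block, pileup calls were 40 and 27 off chromosome 10 and 18 and 1 on it, and gene calls 17 and 8 off it and 10 higher on it. Among the named genes, Dlg2, Foxp1, Negr1, Nrg1, Robo1, Robo2, St8sia4, Marchf8, Slit1, Setd5, Casq2 and Rusc2 lost their calls with the block, and the other named genes kept theirs.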
